A study of Mus musculus with 8 samples.

Results

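The 6 mature arms of the miR-199 and miR-214 hairpins were followed across cultured mesenchymal stromal cells (MSCs) of the pancreas and of inguinal white adipose tissue (iWAT). They are mmu-miR-199a-5p, mmu-miR-199a-3p, mmu-miR-199b-5p, mmu-miR-199b-3p, mmu-miR-214-3p and mmu-miR-214-5p, taken by name from the 1624 mature miRNA names of the small RNA table. miR-199a-3p and miR-199b-3p have the same sequence, so their reads were summed to 1 feature, written miR-199a/b-3p, which leaves 5 features. All 5 passed the filter on low counts (a tissue mean of 1 read or more), as did 1240 mature features in all.

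Small RNA was sequenced in 4 libraries of pMSCs (pancreas, libraries 5, 6, 7 and 8) and 4 libraries of iwatMSCs (iWAT, libraries 13, 14, 15 and 16). All cells came from untreated male C57BL/6J mice, 8 weeks old and fed a standard diet, were sorted by FACS as CD45-, CD31- and SCA1+ cells and were expanded for 4 days in culture before RNA was taken. Per the study's methods, sorted cells of 3 to 5 mice were pooled for culture and both tissues came from the same animals, but no label ties a pancreas library to an iWAT library. The cells were thus a sorted, plated fraction of each stroma. The sources used here do not say whether each library was a separate pool, so the spread between libraries may be that between pools or within them.

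miR-199 and miR-214 are known as miRNAs of mesenchyme. In mouse, the Mir199a-2 and Mir214 hairpins are carried by Dnm3os, a long noncoding RNA transcribed from the strand opposite an intron of the dynamin gene Dnm3, and the transcription factor Twist1 is known to drive it in embryonic mesenchyme. The other miR-199 hairpins lie in the same way opposite introns of Dnm1 and Dnm2. After the hairpin is cut, either arm can enter an Argonaute protein, where the seed (bases 2 to 8) chooses target mRNAs. In fibrosis, miR-199a-5p is known to act on caveolin-1 in human lung fibroblasts and is counted among the pro-fibrotic miRNAs, and miR-214 is known to act on the matricellular gene Ccn2 in mouse hepatic stellate cells.

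The mature sequences in RefSeq (GRCm38.p6) are shown because the 3p names miR-199a and miR-199b stand for the same RNA. RefSeq gave an entry for 5 of the 6 names. The seed is in capitals, and 4 seeds are present.
mmu-miR-199a-5p: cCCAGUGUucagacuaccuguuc
mmu-miR-199a-3p: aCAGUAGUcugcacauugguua
mmu-miR-199b-3p: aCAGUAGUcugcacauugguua
mmu-miR-214-3p: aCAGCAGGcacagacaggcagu
mmu-miR-214-5p: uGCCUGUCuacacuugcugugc
miR-199a-3p and miR-199b-3p share the seed CAGUAGU and every other base, so that a read of this arm can come from any of 3 hairpins. miR-761, which has the seed CAGCAGG of miR-214-3p, had no mature row in the small RNA table. miR-3120 was not analysed here.

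The hairpins are shown because the same 3p arm sits in 3 different stems. Capitals mark the mature arms that RefSeq lists.
Mir199a-1: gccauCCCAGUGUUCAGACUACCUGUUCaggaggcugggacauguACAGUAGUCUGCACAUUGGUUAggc
Mir199a-2: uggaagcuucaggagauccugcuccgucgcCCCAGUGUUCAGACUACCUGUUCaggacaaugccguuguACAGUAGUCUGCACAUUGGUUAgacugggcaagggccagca
Mir199b: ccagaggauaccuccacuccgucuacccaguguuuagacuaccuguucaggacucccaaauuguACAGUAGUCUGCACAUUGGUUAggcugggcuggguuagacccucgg
Mir214: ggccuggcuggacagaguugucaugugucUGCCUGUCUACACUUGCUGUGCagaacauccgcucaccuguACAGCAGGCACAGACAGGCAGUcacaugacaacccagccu
In GRCm38.p6, Mir199a-2 lies at chr1:162217814-162217923 and Mir214 at chr1:162223368-162223477, both on the plus strand. They are 5444 bases apart and both within exons of Dnm3os in the GENCODE M21 annotation, on the strand opposite an intron of Dnm3. Mir199a-1 lies at chr9:21496495-21496564 on the minus strand, opposite an intron of Dnm2. Mir199b lies at chr2:32318460-32318569 on the plus strand, opposite an intron of Dnm1.

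The libraries held between 7789990 and 10538022 mature miRNA reads in pMSCs and between 7956309 and 8830432 in iwatMSCs. Library 7 of pMSCs, which the study's published means leave out, stood apart in the second deposited value (a score called TPM by the authors) but not in its total of reads: the score was 1 for 96.7% of the mature miRNAs with reads there and for 10.9% to 15.8% in the other 7 libraries, and it was 1 for each of the 6 members. Read counts of all 8 libraries were therefore used, and the test of each feature is also given without library 7. Levels are CPM, the count of a feature set against the mature miRNA reads of its library and scaled by TMM. Changes are log2 fold changes, pMSCs over iwatMSCs, from edgeR's quasi-likelihood test, with approximate standard errors (SE) and with p-values adjusted by Benjamini-Hochberg over all features tested.

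In the mature rows all 5 features had lower estimates in pMSCs than in iwatMSCs. 1 of the 5, miR-199a/b-3p, was called lower at an adjusted p under 0.05, none was called higher, and over all mature features 3.15% were called lower (39 of 1240). miR-199a/b-3p was not called in the hairpin rows, described below, or with both row types summed. The median log2 fold change of the 5 was -0.68, and that of all 1240 features was -0.07. Without library 7 none of the 5 was called, against 2.65% of 1243 features called lower. In that fit 4 of the 5 had an unadjusted p under 0.05 (all but miR-199b-5p), against 196 of all 1243 features in either direction. On the score of those 7 libraries, not scaled between libraries, limma with a pseudocount of 1 called miR-199a/b-3p, against 31 of 1243 features called lower. By DESeq2 on all 8 libraries, miR-199a/b-3p, miR-214-3p and miR-214-5p were called lower (3 of 5, against 4.68% of all features). DESeq2 was not refitted without library 7 or without iwatMSCs library 15, which was far above the others in miR-214-3p. In bulk RNA, fewer cells with a miRNA and less of it per cell cannot be told apart.

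**Figure D1:**
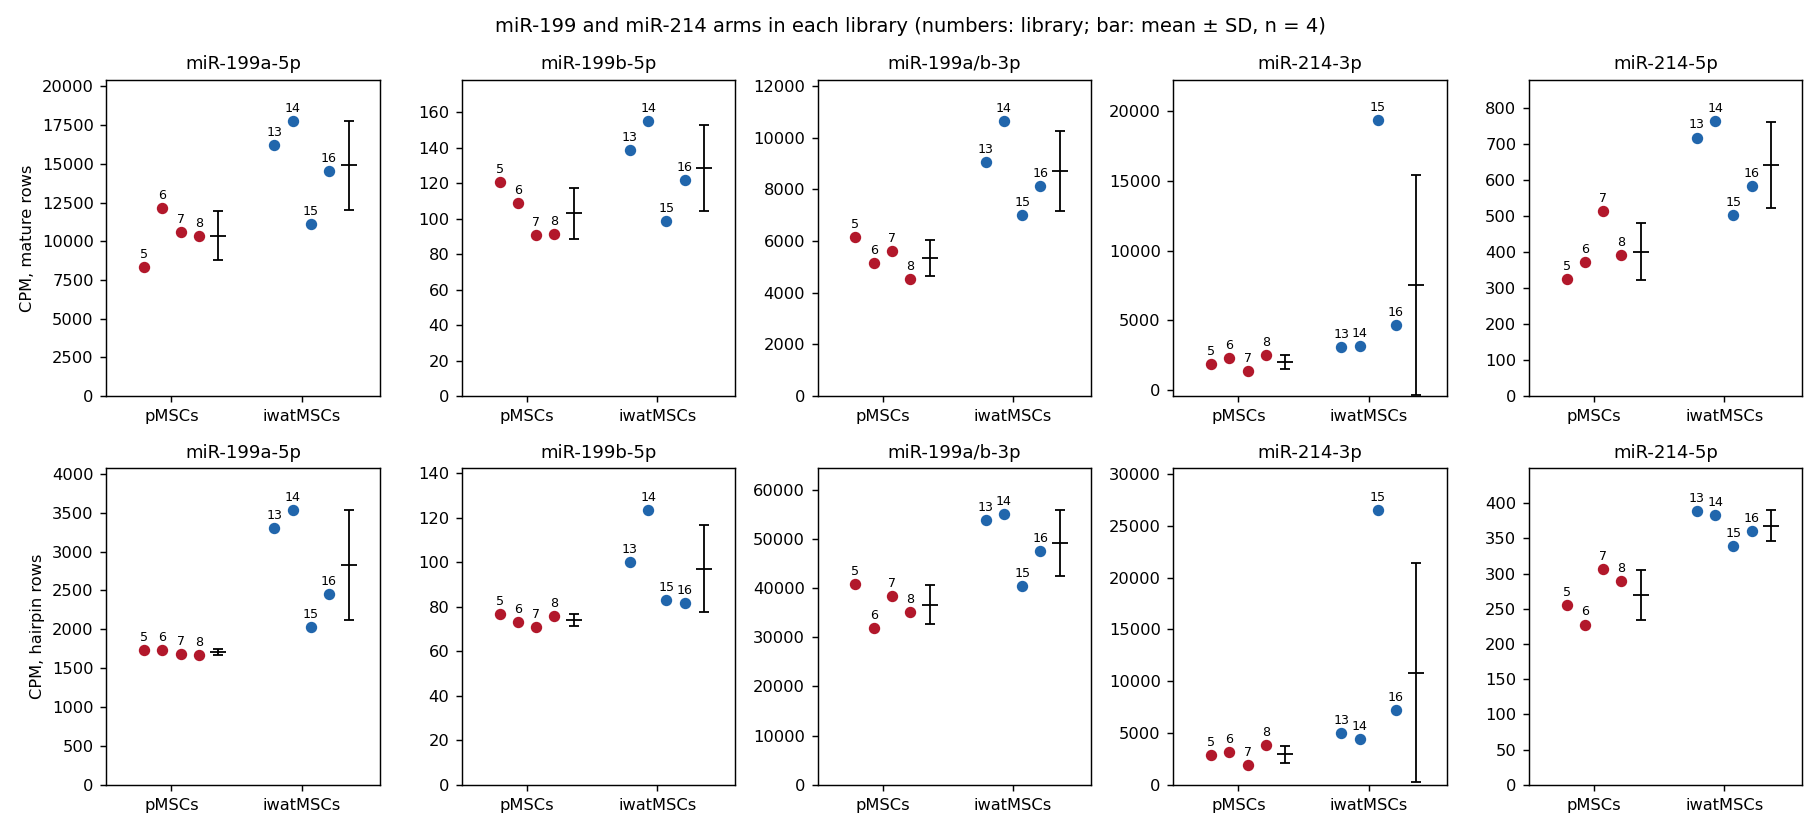
CPM of each feature (y axes, from the mature rows in the upper panels and from the hairpin rows in the lower panels) in pMSCs and iwatMSCs, with 1 point for each library, labelled with its number, and the mean ± SD of 4 libraries beside them. In the mature rows the tissues do not overlap for miR-199a/b-3p and miR-214-3p, and iwatMSCs library 15 lies at 19342 CPM of miR-214-3p, far above the other 7 libraries.

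The 3p arm of miR-199, known in human cells to act on MTOR and MET, was measured at 6144, 5139, 5628 and 4518 CPM in pMSCs libraries 5, 6, 7 and 8, against 9069, 10643, 7015 and 8138 CPM in iwatMSCs libraries 13, 14, 15 and 16. The groups did not overlap, which held for 2 of the 5 features and, with pMSCs below, for 6.85% of all features. It averaged 5357 ± 694 CPM in pMSCs and 8716 ± 1534 CPM in iwatMSCs (SD, n = 4 each). In the mature rows the log2 fold change was -0.70 (SE 0.17, edgeR adjusted p = 0.0369), a level 1.63-fold higher in iwatMSCs. The call was lost when any of 7 libraries was left out, with edgeR adjusted p-values of 0.098 without library 5, 0.139 without 6, 0.0801 without 7, 0.101 without 8, 0.117 without 13, 0.112 without 14 and 0.0898 without 16, and it was kept without library 15 (0.0242). The log2 fold change stayed between -0.79 and -0.60 in these 8 fits. All these values are of the mature rows, which held fewer reads of this arm than the hairpin rows in every library. The log2 fold change was -0.43 in the hairpin rows (edgeR adjusted p = 0.115). With both row types summed it was -0.51 (edgeR adjusted p = 0.133).

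In the mature rows mmu-miR-199a-5p, the arm of the same hairpins that is reported as pro-fibrotic, was the most abundant member in 7 of the 8 libraries. With the hairpin rows added, it had fewer reads than the 3p arm in all 8 libraries. It was measured at 8321, 12137, 10607 and 10352 CPM in pMSCs libraries 5 to 8, against 16232, 17754, 11084 and 14506 CPM in iwatMSCs libraries 13 to 16. The groups overlapped, since iwatMSCs library 15 lay below pMSCs library 6. The log2 fold change was -0.52 (SE 0.18, edgeR adjusted p = 0.154), so no difference was called, and it was -0.54 without library 7 (adjusted p = 0.248) and -0.64 without library 15 (adjusted p = 0.0597). Among all mature features it ranked between 20 and 26 in pMSCs and between 16 and 24 in iwatMSCs.

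mmu-miR-199b-5p, known in mouse heart to act on the kinase gene Dyrk1a, was the least abundant of the 5 features. It was measured at 121, 109, 91.2 and 91.4 CPM in pMSCs, against 139, 155.2, 99.1 and 122 CPM in iwatMSCs, in the same order of libraries. The groups overlapped, and the log2 fold change of -0.32 (SE 0.19) had an edgeR adjusted p of 0.367, or 0.543 without library 7. The 5p stretch of the Mir199b hairpin nearly matches miR-199a-5p, and how reads were divided between these names was not tested.

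mmu-miR-214-3p, the main product of Mir214 and known in mouse muscle to act on the Polycomb gene Ezh2, had the largest fold change of the 5 and the largest spread. It was measured at 1849, 2325, 1355 and 2500 CPM in pMSCs libraries 5 to 8, against 3074, 3159, 19342 and 4648 CPM in iwatMSCs libraries 13 to 16. The groups did not overlap, but library 15 alone stood 6.12-fold over the median of the other iwatMSCs libraries. The log2 fold change was -1.91 (SE 0.60) with an edgeR adjusted p of 0.114, and -1.76 without library 7 (adjusted p = 0.243). Without library 15 it was -0.85 (SE 0.24, adjusted p = 0.102), so that the fold in favour of iwatMSCs was 3.76 with the library and 1.80 without it. Without that library iwatMSCs averaged 3627 ± 885 CPM (SD, n = 3), against 2007 ± 515 CPM in the 4 pMSCs libraries.

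mmu-miR-214-5p, the arm on the other side of the same stem, was measured at 327, 372, 513 and 393 CPM in pMSCs libraries 5 to 8, against 718, 764, 502 and 583 CPM in iwatMSCs libraries 13 to 16. Only pMSCs library 7 and iwatMSCs library 15 crossed. The log2 fold change was -0.68 (SE 0.20, edgeR adjusted p = 0.0861), -0.82 without library 7 (adjusted p = 0.0511) and -0.77 without library 15 (adjusted p = 0.0606). iwatMSCs library 15 thus held the highest miR-214-3p and the lowest miR-214-5p of its tissue.

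**Figure D2:**
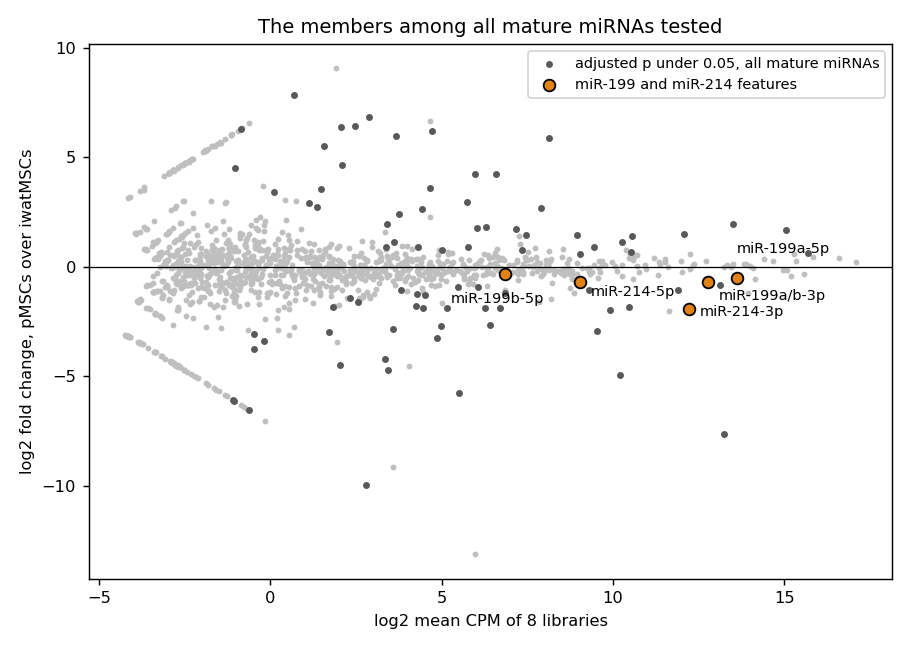
log2 fold change (y axis, pMSCs over iwatMSCs) against log2 mean CPM of the 8 libraries (x axis) for the 1240 mature features, with the 5 miR-199 and miR-214 features as large points and features with an adjusted p under 0.05 in dark grey. The 5 lie below 0, between -0.32 and -1.91, and 1 of them (miR-199a/b-3p) passed the threshold.

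**Figure D3:**
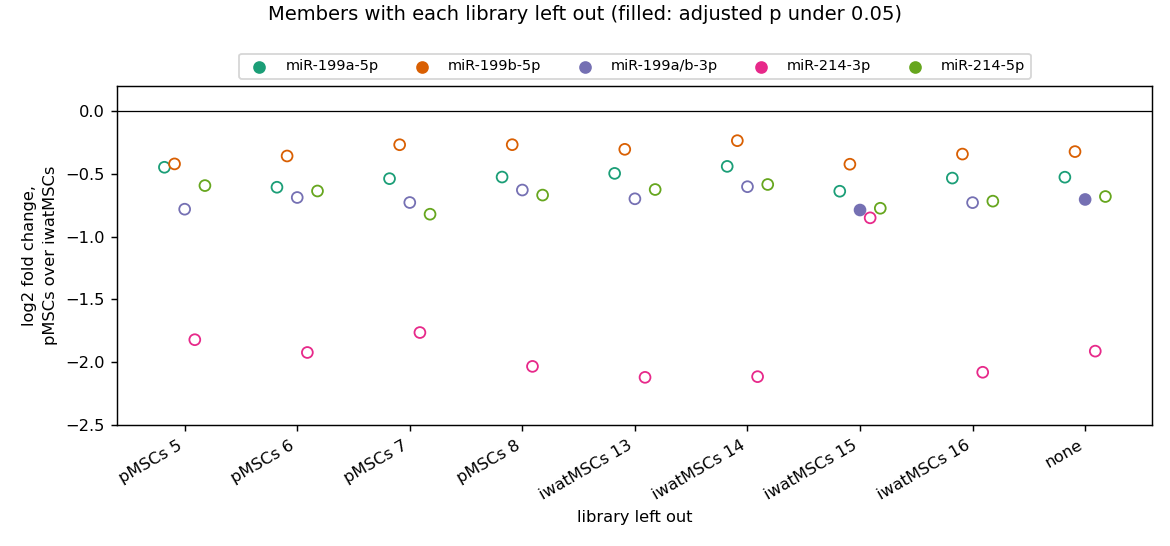
log2 fold change of each feature (y axis, pMSCs over iwatMSCs) with the library on the x axis left out, filled where the edgeR adjusted p was under 0.05. miR-214-3p lies between -2.12 and -1.76 except without iwatMSCs library 15 (-0.85), and miR-199a/b-3p is filled only without library 15 and with no library left out.

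The order of the features by mature-row CPM, all of like length, was the same in 7 of the 8 libraries: miR-199a-5p, miR-199a/b-3p, miR-214-3p, miR-214-5p and miR-199b-5p. In iwatMSCs library 15 miR-214-3p came first. The members together took 1.48%, 1.87%, 1.74% and 1.87% of the mature miRNA reads in pMSCs libraries 5 to 8, against 3.08%, 2.99%, 4.17% and 3.19% in iwatMSCs libraries 13 to 16. The groups did not overlap, and the shares averaged 1.74% ± 0.186 in pMSCs and 3.36% ± 0.550 in iwatMSCs (SD, n = 4 each). The difference, pMSCs minus iwatMSCs, was -1.62 percentage points, and -1.35 without library 15. The exact (Clopper-Pearson) 95% interval was widest for library 15, at 4.16% to 4.19%, and covers counting error only. The share is a description, was not scaled by TMM and was not tested.

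The name given to the 3p reads varied between libraries. Of the summed reads in the mature rows, mmu-miR-199a-3p took 98.8% in both iwatMSCs libraries 13 and 14, and between 0.246% and 1.71% in the 4 pMSCs libraries and iwatMSCs libraries 15 and 16. In reads, mmu-miR-199a-3p had between 109 and 864 in pMSCs, against 326 to 85531 in iwatMSCs, and mmu-miR-199b-3p had between 41682 and 49645 in pMSCs, against 1018 to 72769 in iwatMSCs. Taken as separate names, miR-199a-3p had a log2 fold change of -6.56 (SE 1.78, edgeR adjusted p = 0.0655) and miR-199b-3p 0.48 (adjusted p = 0.848), whereas their sum had -0.70. The levels of miR-199a-3p and miR-199b-3p alone are therefore uncertain, and no direction is given for either.

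**Figure D4:**
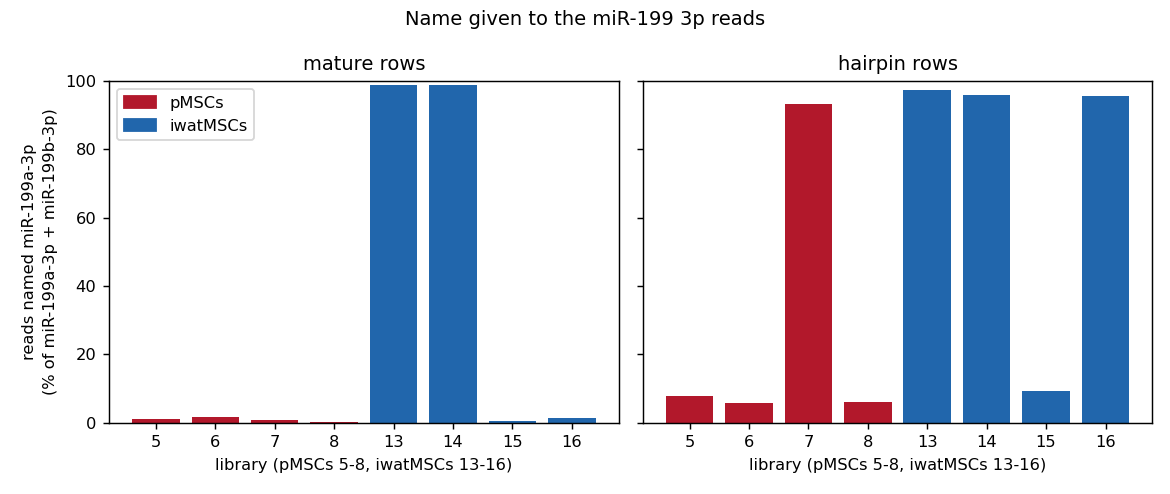
Share of the summed miR-199 3p reads that carries the name miR-199a-3p (y axis, percent) in each library (x axis), from the mature rows on the left and the hairpin rows on the right. The mature share is 98.8% in iwatMSCs libraries 13 and 14 and at most 1.71% in the other 6, whereas the hairpin share is over 93% in pMSCs library 7 and iwatMSCs libraries 13, 14 and 16.

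The table lists each arm a second time, in rows of the type hairpin under the same arm names, and the sources used here do not say how a read was given to either type. These rows were not part of the member rule and were analysed after the mature rows had been seen, with CPM set against the hairpin-row reads of the library. Here miR-199a/b-3p ranked 2 of 1071 features in every library, at 40887, 31775, 38454 and 35158 CPM in pMSCs, against 53896, 54956, 40475 and 47552 CPM in iwatMSCs. The groups overlapped, and the log2 fold change was -0.43 (edgeR adjusted p = 0.115). miR-199a-5p was called lower in pMSCs in these rows (log2 fold change -0.73, SE 0.18, edgeR adjusted p = 0.0296), at 1736, 1740, 1684 and 1673 CPM in pMSCs, against 3304, 3536, 2034 and 2453 CPM in iwatMSCs. It was the only one of the 5 to be called, against 3.17% of the 1071 features, and 4 of the 5 did not overlap (all but miR-199a/b-3p), against 6.72% of all features with pMSCs below. The call of miR-199a-5p in these rows was lost when any of 6 libraries was left out, with edgeR adjusted p-values of 0.0714 without library 5, 0.0579 without 6, 0.0776 without 7, 0.0528 without 8, 0.0922 without 13 and 0.0976 without 14, and was kept without library 15 (0.00446) or 16 (0.0296). Without library 15, miR-199a/b-3p was called as well (log2 fold change -0.55, edgeR adjusted p = 0.0328).

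miR-214-3p was again highest in iwatMSCs library 15 in the hairpin rows, at 26538 CPM, against 4454 to 7259 CPM in the other iwatMSCs libraries and 1924 to 3823 CPM in pMSCs (log2 fold change -1.88, edgeR adjusted p = 0.0522). It was called lower in pMSCs in these rows when iwatMSCs library 13, 14 or 15 was left out, with log2 fold changes of -2.11 (edgeR adjusted p = 0.0286), -2.09 (0.0393) and -0.95 (0.0328), and its adjusted p was 0.142 without pMSCs library 7. miR-214-5p had -0.45 (adjusted p = 0.123) and miR-199b-5p -0.39 (adjusted p = 0.277). The miR-199 3p arm had 7.10 to 8.42 hairpin-row reads for each mature-row read in pMSCs, against 5.94 to 6.67 in iwatMSCs, whereas miR-199a-5p had 0.165 to 0.222 in pMSCs, against 0.184 to 0.229 in iwatMSCs. The balance of the arms differed between the row types: the 5p arms had a median of 1.80 reads for each 3p read over the 8 libraries in the mature rows and 0.290 when both row types were summed. The order of the miR-199 arms by reads was thus opposite in these 2 counts.

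Ratios within a library need no scaling between libraries, and 4 were compared by an exact permutation test (two-sided, 4 against 4 libraries, smallest p possible 0.0286). The miR-199 5p arms over its 3p arms gave 1.37, 2.38, 1.90 and 2.31 in pMSCs, against 1.81, 1.68, 1.59 and 1.80 in iwatMSCs. The difference of the mean log2 ratios was 0.18 (exact permutation p = 0.343, adjusted over 4 ratios 0.457). It depended on single pMSCs libraries, at 0.35 without library 5 (exact permutation p = 0.0571, the smallest that 3 against 4 libraries can give), 0.084 without library 6 and 0.099 without library 8. The ratio varied more among pMSCs (SD 0.37 on the log2 scale) than among iwatMSCs (SD 0.085), a spread that was not tested.

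miR-199a-5p over miR-199b-5p gave 68.8, 112, 116 and 113 in pMSCs, against 117, 114, 112 and 119 in iwatMSCs, so that 7 of the 8 libraries lay close together and pMSCs library 5 lay below them (difference -0.20, exact permutation p = 0.20, and -0.023 without library 5, exact permutation p = 0.40). miR-214-3p over miR-214-5p gave 5.66, 6.25, 2.64 and 6.37 in pMSCs, against 4.28, 4.13, 38.5 and 7.97 in iwatMSCs. Its difference was -0.80 (exact permutation p = 0.486), -0.50 without pMSCs library 7 and -0.08 without iwatMSCs library 15 (p = 0.971 in both). miR-214-3p over miR-199a-5p, from hairpins that share Dnm3os, gave 0.222, 0.192, 0.128 and 0.242 in pMSCs, against 0.189, 0.178, 1.75 and 0.320 in iwatMSCs. Its difference was -0.96 (exact permutation p = 0.286), and -0.22 without library 15 (p = 0.571). None of the 4 differences passed the test, and without 1 library the smallest possible p is 0.0571.

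**Figure D5:**
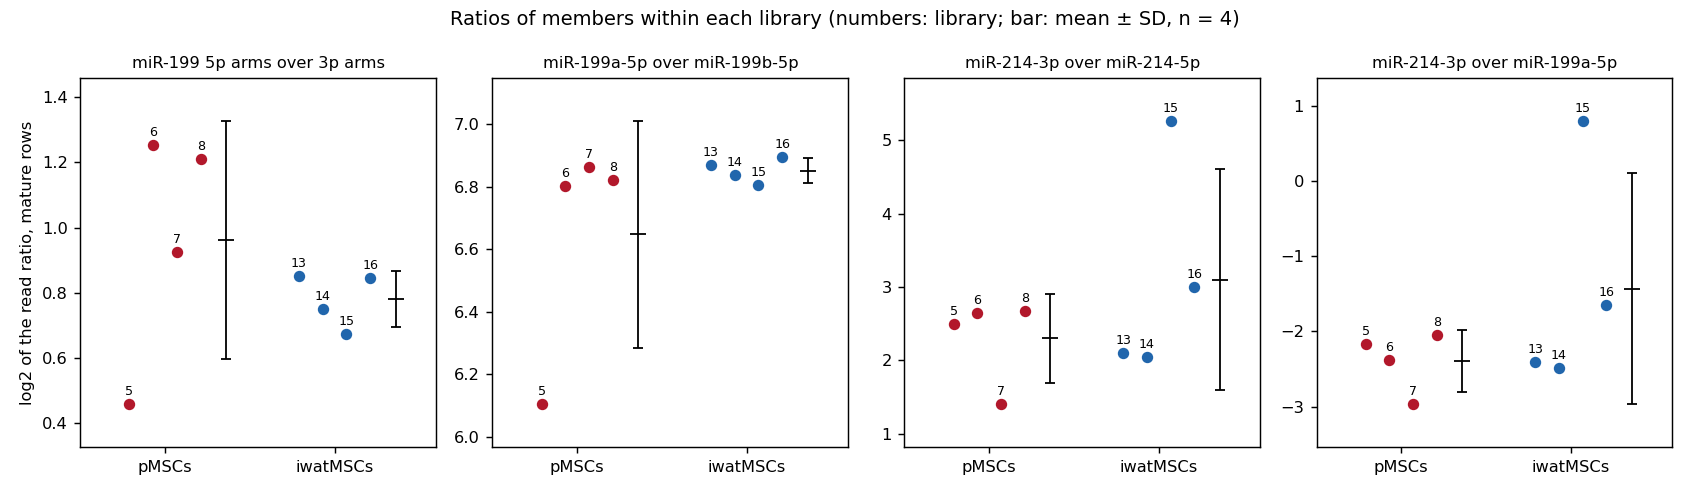
log2 of 4 read ratios within each library (y axes) in pMSCs and iwatMSCs, with 1 point for each library, labelled with its number, and the mean ± SD of 4 libraries beside them. Library 5 is low for miR-199a-5p over miR-199b-5p, and library 15 is high for both ratios with miR-214-3p on top, at 38.5 and 1.75 on the linear scale.

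Across the 8 libraries the members other than miR-214-3p went together, with Pearson correlations of log2(CPM + 1) between 0.59 and 0.89, and miR-214-3p had correlations of -0.01 to 0.31 with them, or 0.51 to 0.70 without library 15. These are descriptions over libraries that share their tissue difference, and were not tested. The 5 mature miRNAs of at least 100 CPM, among 178, whose levels went most closely with the summed members were miR-196b-5p (r = 0.96), miR-31-5p (0.96), miR-196a-5p (0.96), miR-615-3p (0.93) and miR-15a-5p (0.93), over 8 libraries. All 5 were lower in pMSCs than in iwatMSCs, with log2 fold changes between -7.62 for miR-196a-5p (edgeR adjusted p = 2.38e-08) and -1.07 for miR-15a-5p (adjusted p = 0.00225), and miR-196a-5p averaged 98.0 CPM in pMSCs and 19260 CPM in iwatMSCs. They were chosen for following a sum that was itself lower in every pMSCs library. Their shared direction therefore follows from the choice, and their p-values add no separate evidence.

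Lists of miRNAs of the same stroma and of other cell types give the setting of these values. Among 24 arms of other stromal miRNAs 3 were higher in pMSCs (miR-143-3p, miR-145a-3p and miR-145a-5p) and 1 was lower (miR-221-3p), against 3.47% of all 1240 features called higher and 3.15% called lower, and their summed level was 297173 to 343317 CPM in pMSCs, against 265666 to 359924 CPM in iwatMSCs. The most abundant of them, miR-22-3p, averaged 150734 ± 9997 CPM in pMSCs and 128936 ± 30269 CPM in iwatMSCs. Reports differ on which miRNAs favour fibrosis, and the fibrosis lists used here differ from the set that the study names. They share miR-221-3p with that set, classed the opposite way. Of 10 arms in the list of pro-fibrotic miRNAs, miR-221-3p, which the study counts as anti-fibrotic, and miR-34a-5p were lower in pMSCs, against the same 3.15%, and none of the 10 was higher. Outside that list, miR-10a-5p and miR-23b-3p, which the study counts as pro-fibrotic, were higher in pMSCs. Their log2 fold changes were 1.96 (edgeR adjusted p = 0.000579) for mmu-miR-10a-5p and 1.48 (adjusted p = 0.000374) for mmu-miR-23b-3p. Of 20 arms in the list of anti-fibrotic miRNAs, which leaves out miR-221-3p, miR-196a-5p and miR-20a-3p, none was called by edgeR. Of the 20, 4 had an unadjusted p under 0.05, against 228 of all 1240 features. DESeq2 called 3 of them, against 58 of 1240 features called lower and 72 called higher. In this list miR-29a-3p, known to act on collagen mRNAs, was at 11186 ± 3332 CPM in pMSCs and 11115 ± 394 CPM in iwatMSCs (SD, n = 4 each). The study counts the miRNAs left out of the list as anti-fibrotic. Of them, mmu-miR-221-3p had a log2 fold change of -1.04 (edgeR adjusted p = 0.00418) and miR-196a-5p was lower in pMSCs as given above, whereas mmu-miR-20a-3p was not called (-0.79, adjusted p = 0.320). The counts of these lists were the same without library 7 and without library 15. These miRNAs and the called members of the lists outside the most abundant were named after their values had been seen.

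Markers of other pancreatic cells differed between the tissues in the same fit. Epithelial arms had 7 of 17 called higher in pMSCs, against 3.47% of all features, and summed to 481 to 859 CPM in pMSCs, against 182 to 287 CPM in iwatMSCs. The islet miRNA miR-375-3p was at 254 to 808 CPM in pMSCs, against 3.53 to 22.5 CPM in iwatMSCs, and 3 of 6 acinar arms (miR-216a-5p, miR-216b-5p and miR-217-5p) were called higher, against the same share (4 arms without library 15), with a sum of 7.00 to 34.7 CPM in pMSCs, against 0.369 to 1.27 CPM in iwatMSCs. None of the 6 blood arms, 4 endothelial arms or 4 muscle arms was called by edgeR. In that order, 3, 1 and 1 had an unadjusted p under 0.05, against 228 of all 1240 features. DESeq2 called 2, 0 and 0, against 58 of 1240 features called lower and 72 called higher. The blood arms summed to 41.7 to 88.6 CPM in pMSCs, against 58.0 to 118 CPM in iwatMSCs, the endothelial arms to 219 to 427 CPM in pMSCs, against 199 to 355 CPM in iwatMSCs, and the muscle arms to 289 to 477 CPM in pMSCs, against 365 to 784 CPM in iwatMSCs. The part of these markers in the lower levels of miR-199 and miR-214 in pMSCs was not tested.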

How the data were processed

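Small RNA of pMSCs and iwatMSCs (4 libraries each, grouped by the tissue in the labels) was sequenced by the authors' provider with unique molecular identifiers. The read counts per small RNA were made by the authors with Bowtie2 named as the aligner, and are used as deposited. The genome build and miRBase release are not given in the sources used here. The score called TPM by the authors is a deposited whole number, written 0.001 for 0, never above the count and not scaled to a common total, and it served only as an alternative.

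Mature features whose mean count reached 1 in either tissue entered a quasi-likelihood fit of edgeR 4.0.16 in R 4.3.3, with TMM scaling, tissue as its term and a two-sided test. Approximate standard errors were derived from the F statistic. The script was tested on simulated data. The library that the study left out was found by matching its published means of 58 miRNAs (tolerance 2e-05). All 58 were matched without library 7, and at most 3 were matched with another library or none left out. Exact permutation tests used scipy 1.17.1, with numpy 2.4.6, pandas 2.3.3 and, for figures, matplotlib 3.10.9 in Python 3.11.15. Alternatives used DESeq2 1.42.0 and limma 3.58.1. The labels do not say which libraries came from separate animals, so p-values measure only the spread between these libraries. Planned for naming were the 6 members, their hairpin rows (whose fits were not planned), the 5 most alike in level, and up to 2 of the most abundant of each of 9 lists. Those that share a seed and both arms of miR-3120 were planned too, but no values are given for them. The members and lists were chosen with earlier results of these data known. Intervals cover counting error only.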

Additional observations from a re-analysis of the deposited data

Results flagged for a closer look

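In 30 groups of 4 libraries, the gap between a library and its neighbour was set against the group's range (Dixon's ratio at its 95% critical value for groups of 4), and 5 groups held a library apart. About 1 group in 20 is expected to do so by this criterion alone, and the groups are not independent. 3 of the 5 were iwatMSCs library 15: miR-214-3p in the mature rows (19342 CPM), miR-214-3p in the hairpin rows (26538 CPM) and the share of mature miRNA reads taken by the members (4.17%). The other two were in pMSCs: library 5 was low in the log2 ratio of miR-199a-5p over miR-199b-5p (6.10), and library 7 was low in the log2 ratio of miR-214-3p over miR-214-5p (1.40).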

How the results depend on the processing

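The log2 fold changes of the 5 features were negative in all 24 alternative fits (117 values, since separate or summed names drop some features). No member was called higher in pMSCs in any. These fits reuse the same libraries, and between 49.6% and 77.7% of all features were negative in them. The call of miR-199a/b-3p (-0.70) was kept with DESeq2 size factors, no normalization factors, DESeq2, no filter, a mean of at least 10, known miRNAs only and summed 5p names. It was lost on the score of 8 libraries with pseudocounts of 1, 0.5 and 5 (-3.94, -4.01 and -3.64, where library 7 holds 1 for each member), in the hairpin rows (-0.43) and in mature and hairpin rows summed (-0.51). With the score and without library 7 it was kept. Leaving out 1 library gave -0.79 to -0.60 for it, and 0 to 1 members called lower. Calls gained were miR-214-5p without normalization factors (-0.80), miR-214-3p and miR-214-5p with DESeq2 (-1.91 and -0.67) and miR-199a-5p in the hairpin rows (-0.73). Members called lower numbered 2 without normalization factors, which moved the median of all features to -0.22 from -0.07, 3 with DESeq2, and 0 on the score of 8 libraries, with separate 3p names (which give no summed feature) and with row types summed.

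Over all mature features, 43 were called higher and 39 lower. DESeq2 called 72 higher, and the score of 8 libraries called 5, 7 and 0 higher and 9, 16 and 5 lower with pseudocounts of 1, 0.5 and 5. With miR-199a-3p alone as the 3p arm, the difference of the log2 ratio of 5p to 3p was 3.74 (against 0.18), and on the score that of miR-199a-5p over miR-199b-5p was -1.56 (against -0.20), where library 7 holds 1 for both arms, which sets its ratio. Without that library the score gave -0.067. The 5p to 3p difference turned to -0.07 with row types summed, with no test passed in either. The share of the members differed by -1.62 percentage points of mature reads, -0.58 of all small RNA reads and -2.26 of the score, library 7 included. No paired analysis was possible because the tissues share no library numbers. The score without library 7 (fits and ratios), the hairpin rows (also with each library left out) and the summed row types were chosen after seeing the data. With 4 libraries a tissue, differences of the size seen for miR-199b-5p were within the spread.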

Other observations

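Library 15 of iwatMSCs was not high in miR-214-3p alone. Of 177 mature miRNAs compared, 6 were at least 4-fold over the median of the other iwatMSCs libraries there, against 2 in library 13, 0 in library 14 and 1 in library 16. They were miR-744-5p (57.3-fold, and also high in library 16), the 2 authors' predicted miRNAs novel_mir1 and novel_mir219 (both also high in library 13), miR-125b-5p (7.82-fold, 64170 CPM in library 15), miR-214-3p (6.12-fold) and miR-152-3p (4.86-fold). miR-125b-5p and miR-152-3p were in the list of other stromal miRNAs.

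A further entry of the table, the Rfam family of the miR-199 precursor, had 49387, 60766, 65146 and 63700 reads in pMSCs libraries 5 to 8, against 101363, 90262, 7264 and 83341 reads in iwatMSCs libraries 13 to 16, so that library 15 was also the lowest here. The Rfam family of the miR-214 precursor had 16 to 210 reads in pMSCs and 11 to 55 in iwatMSCs. These reads were not tested.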
